A study of Mus musculus with 9 samples.

Results

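The genes described here are 36 genes of vascular endothelium and the blood-brain barrier, chosen as a list of symbols and read from a table of 56748 genes. All 36 symbols matched 1 Ensembl identifier each, and all 36 passed the filter on low counts, as did 17171 genes in all. RNA of whole brains taken from mouse embryos on embryonic day 14 (E14) had been sequenced in 9 libraries, 3 exposed to valproic acid, 3 exposed to poly(I:C) and 3 controls given saline. Valproic acid is an anticonvulsant that inhibits histone deacetylases, and poly(I:C) is a synthetic double-stranded RNA that triggers antiviral immunity. No mutant allele is named in the labels, and the design text calls the unexposed mice wild type. The sources used here do not give dose, day of exposure, strain or litter, nor whether each library came from its own embryo, and the p-values below therefore reflect only variation among the libraries, which may be technical.

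Brain vessels grow into the embryonic neural tube from a surrounding plexus, guided by vascular endothelial growth factor (VEGF) made by neural progenitors. Wnt signals from the same progenitors induce barrier properties, which are tight junctions, few caveolae and dedicated transporters. Angiopoietin, Notch and sphingosine-1-phosphate signals then stabilise the vessels, and ETS and SOX transcription factors keep endothelial identity.

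Totals ranged from 15399974 to 19883131 counts per library. Neural markers were present: Tubb3, a neuronal tubulin, lay between 1902 and 2145 CPM (counts scaled to a common library total) in all libraries, and Sox2, a neural progenitor factor, between 195 and 231 CPM. Xist, the female-specific X inactivation RNA, ranged over 979 to 1054 CPM across the valproic acid libraries and reached 1047 CPM in poly(I:C) replicate 3, with at most 0.236 CPM in any other library. Y-linked transcripts (Ddx3y, Uty, Kdm5d and Eif2s3y together) reached 196 to 201 CPM in poly(I:C) replicates 1 and 2 and control replicates 1 and 2, and had 0 CPM in the other libraries, so control replicate 3 had neither signal. Since Xist was high in each valproic acid library and in no control, exposure and sex cannot be told apart in that comparison. Fits below with a sex-linked covariate cannot separate them either. The Xist slope rests almost wholly on poly(I:C) replicate 3, and the Y-linked slope on that library and control replicate 3. In whole brain RNA, fewer endothelial cells and less RNA per endothelial cell also cannot be told apart.

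Endothelial transcripts were present in all libraries. The 36 genes summed to 820, 808 and 841 CPM in the valproic acid libraries, 793, 797 and 787 CPM in the poly(I:C) libraries and 796, 832 and 810 CPM in the controls. The valproic acid and control ranges overlapped, while all valproic acid sums lay above all poly(I:C) sums and poly(I:C) replicate 2 was the one poly(I:C) library above the lowest control. Cdh5, the endothelial cadherin, which is not among the 36, averaged 59.9 ± 8.86 CPM under valproic acid, 54.0 ± 5.86 under poly(I:C) and 55.4 ± 2.26 in controls (SD, n = 3 each) and was not called by edgeR. Levels of different genes were set side by side only per kilobase (kb) of exon. On that scale Cldn5, the main claudin of brain endothelial tight junctions, was highest at 49.8 CPM per kb in controls, followed by Itm2a, a membrane protein enriched in brain endothelium, at 29.7 and the sialomucin Podxl at 13.4 CPM per kb. The lowest were Ly6c1, a surface protein of endothelial and myeloid cells, at 0.472 and Exoc3l2, an exocyst-like protein known to help VEGF receptor traffic, at 0.154 CPM per kb.

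**Figure D1:**
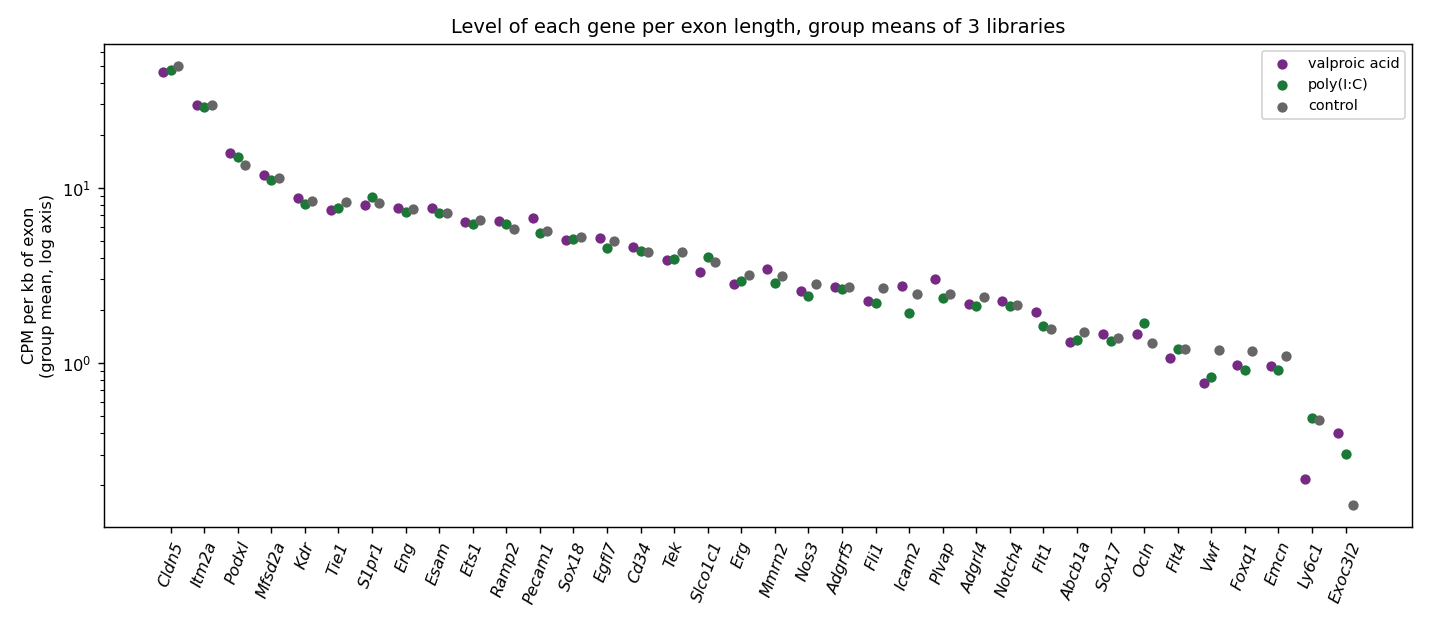
Mean level per kb of exon (CPM per kb, log axis) of the 36 genes, ordered by the control mean, in valproic acid, poly(I:C) and control brains (points, means of 3 libraries). Cldn5 leads at 46.2, 47.1 and 49.8 CPM per kb, and the group means lie furthest apart for the genes lowest in level, Ly6c1 and Exoc3l2.

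Promoter sequence was read for the genes that RefSeq's table held, 21 of the 36 with 28 start sites (build GRCm38.p6, earlier than the GRCm39 of the counts). Shown are the 250 bases before the start of Exoc3l2 (chr7:19463037-19463286, plus strand), the one gene called in a comparison with control for which the table held a promoter, of the VEGF receptor Flt1 (chr5:147726012-147726261, minus strand) and the angiopoietin co-receptor Tie1 (chr4:118489850-118490099, minus strand), whose log2 changes under valproic acid had opposite signs, neither called by edgeR (adjusted p = 0.0696 and 0.185), and of Cldn5 (chr16:18776597-18776846, plus strand), which led in level per kb. Each runs 5′ to 3′ on the gene's strand, and capitals mark GGAA or its complement TTCC, the core letters that ETS factors such as Erg, Fli1 and Ets1 recognise.
Exoc3l2: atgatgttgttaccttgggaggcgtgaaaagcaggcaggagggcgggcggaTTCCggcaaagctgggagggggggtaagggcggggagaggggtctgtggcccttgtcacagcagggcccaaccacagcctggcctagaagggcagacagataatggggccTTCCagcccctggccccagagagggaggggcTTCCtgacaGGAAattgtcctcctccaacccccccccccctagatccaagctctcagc
Flt1: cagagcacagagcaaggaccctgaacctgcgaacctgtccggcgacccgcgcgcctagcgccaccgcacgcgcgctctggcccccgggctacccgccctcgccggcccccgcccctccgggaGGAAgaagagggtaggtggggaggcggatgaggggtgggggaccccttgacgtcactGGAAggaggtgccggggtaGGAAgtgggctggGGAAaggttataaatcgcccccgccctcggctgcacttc
Tie1: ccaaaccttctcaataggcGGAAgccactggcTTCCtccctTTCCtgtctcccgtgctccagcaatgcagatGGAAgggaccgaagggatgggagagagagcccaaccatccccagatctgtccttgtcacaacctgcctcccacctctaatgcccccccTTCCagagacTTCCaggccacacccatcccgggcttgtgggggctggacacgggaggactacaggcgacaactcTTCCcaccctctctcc
Cldn5: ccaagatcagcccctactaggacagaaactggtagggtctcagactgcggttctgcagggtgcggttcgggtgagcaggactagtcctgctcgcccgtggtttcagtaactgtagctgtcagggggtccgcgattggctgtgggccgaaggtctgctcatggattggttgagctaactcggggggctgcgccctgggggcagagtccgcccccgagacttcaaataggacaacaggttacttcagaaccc
The windows held 4 such cores for Exoc3l2, 4 for Flt1, 7 for Tie1 and 0 for Cldn5. The core alone is common: 92.9% of the 28 windows held it, and 93.4% of all 32851 promoter windows of the same length. The longer CAGGAA (either strand), which contains the core, was in 12 of the 28 windows (42.9%), the Exoc3l2 and Tie1 windows among them, and in 25.7% of all windows. The SOX core ACAAT was in 21.4% of the 28 windows and 27.7% of all, and CTTTGA, a letter match to the TCF/LEF motif of Wnt signalling, in 10.7% and 13.8%. These are letter matches and were not tested against the expression values.

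Exposure to valproic acid came with 3 higher genes and 1 lower gene among the 36, by the quasi-likelihood test of edgeR, adjusted by Benjamini-Hochberg over all tested genes, at a threshold of 0.05. Pecam1, an adhesion molecule of endothelial junctions and platelets, Podxl and Exoc3l2 rose, and Vwf, the clotting factor stored in endothelial granules and platelets, fell. The 4 calls are 11.1% of the list, where 6.35% of all tested genes were called in this comparison (3.57% higher and 2.78% lower), and 7 of 36 (19.4%) passed an unadjusted p of 0.05, against 22.1% of all. Under poly(I:C) 0 of 36 were called by edgeR and 0 by DESeq2, where edgeR called 0.536% of all tested genes, 0.262% higher and 0.274% lower. An unadjusted p of 0.05 was passed by 5 of the 36 (13.9%, against 12% of all genes). Between valproic acid and poly(I:C), Pecam1 alone was called, higher under valproic acid (1 of 36, 2.78%, against 2.59% of all genes called, 1.42% higher and 1.18% lower); 7 of 36 (19.4%) passed an unadjusted p of 0.05, against 16.7% of all. These comparisons share libraries, so their counts are not independent of each other.

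The median log2 change over the 36 was -0.00012 for valproic acid against control, where the median of all tested genes was -0.0033, with 18 genes above 0 and 18 below (50%; 49.1% and 50.9% of all tested genes). For poly(I:C) against control the median was -0.05 and 27 of 36 genes (75%) were below 0, where 51.1% of all tested genes were, and 9 above 0, where 48.9% of all were. Between valproic acid and poly(I:C) it was 0.06, with 24 of 36 above 0 and 12 below, where 50% of all tested genes lay on either side. The median size of change, 0.15, 0.10 and 0.09 on the log2 scale in these comparisons, stood beside 0.12, 0.09 and 0.10 over all tested genes. Valproic acid and control libraries did not overlap for 11 of 36 genes (30.6%, against 25.6% of all tested genes): 3 lay above (12.6% of all) and 8 below (13% of all). Poly(I:C) and control libraries did not overlap for 8 (22.2%, against 18.4% of all), 4 above (9.61% of all) and 4 below (8.83% of all). The exposed groups did not overlap with each other for 6 (16.7%, against 21.9% of all), 4 with valproic acid above (10.5% of all) and 2 below (11.4% of all).

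**Figure D2:**
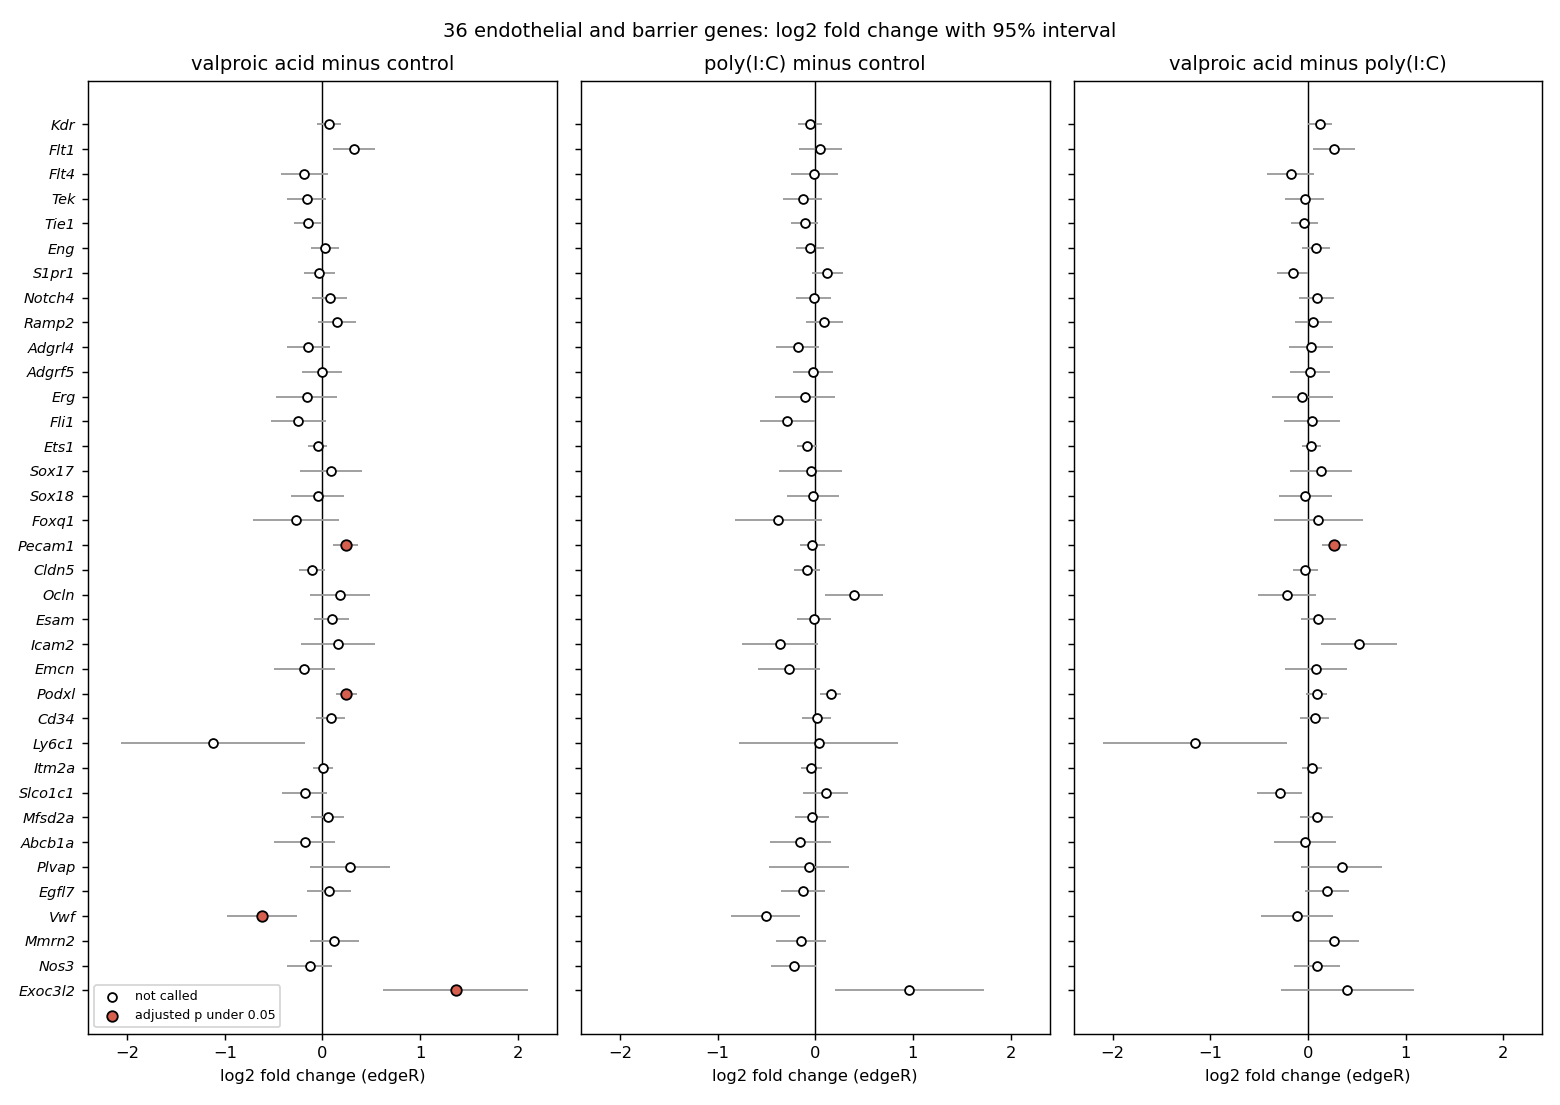
Log2 fold change (points) with its 95% interval (lines) of the 36 genes in the comparisons named over each panel, from edgeR fits to 3 libraries per group; filled points have an adjusted p under 0.05. Pecam1, Podxl, Vwf and Exoc3l2 are filled for valproic acid minus control, no gene is filled for poly(I:C) minus control, and Pecam1 alone is filled for valproic acid minus poly(I:C).

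Of the 11 receptors and signalling genes edgeR called 0 in each comparison (2, 0 and 2 passed an unadjusted p of 0.05 for valproic acid against control, poly(I:C) against control and valproic acid against poly(I:C)), and DESeq2 called 1, Flt1, for valproic acid against control. Kdr, the main signalling receptor for VEGF, was at 75.8, 79.4 and 82.8 CPM under valproic acid, 71.7, 78.4 and 68.4 CPM under poly(I:C) and 76.9, 77.1 and 73.1 CPM in controls. The groups overlapped throughout, and the log2 change was 0.07 (95% interval -0.05 to 0.19) for valproic acid and -0.05 (-0.17 to 0.07) for poly(I:C), each against control. Between the exposures it was 0.12 (unadjusted p = 0.0473, edgeR adjusted p = 0.292).

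Flt1, the VEGF receptor that acts largely as a decoy, was the receptor with the smallest p. It was at 29.7, 27.6 and 22.5 CPM under valproic acid, 23.1, 21.9 and 21.2 CPM under poly(I:C) and 21.2, 19.3 and 23.2 CPM in controls. Valproic acid replicates 1 and 2 lay above every other library, while replicate 3 lay within the control range. The log2 change against control was 0.32 with a standard error of 0.1 (edgeR adjusted p = 0.0696), and 0.27 against poly(I:C) (edgeR adjusted p = 0.181). DESeq2 did call it for valproic acid against control (adjusted p = 0.0427), as did edgeR without valproic acid replicate 3 (adjusted p = 0.0221) and without a filter on low counts (adjusted p = 0.0134).

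Tie1, an orphan receptor that modulates angiopoietin signalling, was at 35.98, 35.04 and 38.9 CPM under valproic acid, 38.0, 40.1 and 34.9 CPM under poly(I:C) and 41.6, 40.5 and 39.9 CPM in controls. All valproic acid libraries lay below all controls, with a log2 change of -0.15 (unadjusted p = 0.0351, edgeR adjusted p = 0.185). Its partner Tek, the angiopoietin receptor, had a log2 change of -0.16, and the lymphatic VEGF receptor Flt4 one of -0.18 with groups that did not overlap, neither called. The other 6, the TGF-beta co-receptor Eng, the sphingosine-1-phosphate receptor S1pr1, Notch4, the adrenomedullin co-receptor Ramp2 and the adhesion receptors Adgrl4 and Adgrf5, had log2 changes of -0.18 to 0.15 in the comparisons with control. Notch4, the Notch receptor most restricted to endothelium, was at 18.1 ± 0.865 CPM under valproic acid, 17.1 ± 0.682 under poly(I:C) and 17.2 ± 1.05 in controls.

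Of the 6 endothelial transcription factors edgeR and DESeq2 called 0 in each comparison, and 1, Fli1 under poly(I:C), passed an unadjusted p of 0.05. All 6 had a negative log2 change for poly(I:C) against control. Ets1, which many cell types express, was at 53.2, 52.9 and 55.6 CPM under valproic acid, 52.3, 53.6 and 51.9 CPM under poly(I:C) and 55.8, 56.0 and 55.6 CPM in controls. Both exposed groups lay just below the controls, by 0.05 and 0.08 on the log2 scale (edgeR adjusted p = 0.579 and 0.512). Fli1, an ETS factor of endothelium and platelet precursors, was at 7.46, 8.09 and 8.17 CPM under valproic acid, 7.37, 7.29 and 8.47 CPM under poly(I:C) and 8.61, 8.51 and 10.98 CPM in controls.

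Both exposed groups lay below the controls for Fli1 too, with control replicate 3 the highest of all libraries. The log2 change was -0.25 under valproic acid (edgeR adjusted p = 0.294) and -0.29 under poly(I:C) (unadjusted p = 0.047, edgeR adjusted p = 0.408). Erg, the ETS factor that maintains endothelial junctions, was at 8.86, 10.01 and 10.7 CPM under valproic acid, 8.18, 12.1 and 10.4 CPM under poly(I:C) and 10.1, 12.5 and 10.4 CPM in controls, with groups that overlapped. Control replicate 3 also carried the highest level of Foxq1, a forkhead factor enriched in brain endothelium, at 7.70 CPM beside 4.07 and 5.30 CPM in the other controls. The SOX factors Sox17 and Sox18 had log2 changes of 0.08 and -0.05 under valproic acid and -0.05 and -0.02 under poly(I:C).

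Among the 10 junction, adhesion and surface molecules 2 rose under valproic acid. Pecam1 was at 40.3, 42.8 and 42.0 CPM under valproic acid, 36.1, 34.9 and 32.8 CPM under poly(I:C) and 35.0, 37.1 and 33.9 CPM in controls. All valproic acid libraries lay above all 6 others. The log2 change was 0.24 with a standard error of 0.0605 against control (1.18-fold, edgeR adjusted p = 0.031) and 0.27 with a standard error of 0.0606 against poly(I:C) (1.2-fold, edgeR adjusted p = 0.0327). Both calls changed with single libraries: against control the call was lost without control replicate 1 or 3 or valproic acid replicate 2 or 3 (edgeR adjusted p up to 0.108), and against poly(I:C) it was kept only without poly(I:C) replicate 1 (0.0484; up to 0.127 in the others). The call against control was kept when Y-linked expression entered the fit (edgeR adjusted p = 0.0434) and lost with Xist in its place (0.3), where the log2 change was 0.36 with a standard error of 0.108, larger and less precise than without it. Pecam1 is also a platelet and leukocyte gene, and the summed platelet list (9 genes, led by Pf4, a platelet chemokine) was at 11.4, 11.6 and 13.0 CPM under valproic acid, 8.61, 9.43 and 10.4 CPM under poly(I:C) and 10.9, 9.97 and 10.7 CPM in controls. Its part in the Pecam1 result was not tested.

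Podxl, which lines the vessel lumen and is also made by neurons, was at 85.7, 88.0 and 88.7 CPM under valproic acid, 86.2, 78.5 and 82.2 CPM under poly(I:C) and 70.04, 73.4 and 77.8 CPM in controls. Both exposed groups lay wholly above the controls. The log2 change was 0.25 with a standard error of 0.0516 under valproic acid (1.19-fold, edgeR adjusted p = 0.0133) and 0.16 under poly(I:C) (1.12-fold, unadjusted p = 0.00809, edgeR adjusted p = 0.222). The valproic acid call was kept in 5 of 6 fits that left out a library and lost without control replicate 1 (edgeR adjusted p = 0.0645). With Y-linked expression as a covariate the adjusted p was 0.125, at a log2 change of 0.21, and with Xist it was 0.448, at a log2 change of 0.25 with a standard error of 0.0992.

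The tight junction genes Cldn5 and Ocln were not called by edgeR or DESeq2. Cldn5 was at 64.6, 61.5 and 70.2 CPM under valproic acid, 64.8, 65.9 and 69.2 CPM under poly(I:C) and 66.2, 75.8 and 69.3 CPM in controls, with overlapping groups. Its log2 change was -0.11 (95% interval -0.24 to 0.02) under valproic acid and -0.08 (-0.21 to 0.05) under poly(I:C), so a fall larger than the lower bounds is not covered by these intervals. Ocln, the other tight junction protein, was at 5.31, 6.17 and 7.12 CPM under valproic acid, 7.47, 7.29 and 6.76 CPM under poly(I:C) and 5.37, 5.35 and 5.67 CPM in controls. All poly(I:C) libraries lay above all controls for Ocln (log2 change 0.39, standard error 0.139, unadjusted p = 0.0129), without passing the adjustment (edgeR adjusted p = 0.257).

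Icam2, a leukocyte ligand held constitutively on endothelium, was at 5.19, 5.41 and 5.10 CPM under valproic acid, 3.68, 3.51 and 3.76 CPM under poly(I:C) and 4.66, 5.86 and 3.63 CPM in controls. The exposed groups were each tight and lay apart from each other, while the controls spread across both. The log2 change between valproic acid and poly(I:C) was 0.52 (unadjusted p = 0.0121, edgeR adjusted p = 0.151). Ly6c1 was at 0.292, 0.349 and 0.457 CPM under valproic acid, 1.03, 0.823 and 0.588 CPM under poly(I:C) and 0.825, 0.507 and 1.04 CPM in controls. Valproic acid libraries lay below all others, but on 5 to 21 counts per library, and reads of related Ly6 genes may be shared; the log2 change against control was -1.12 (95% interval -2.06 to -0.18, edgeR adjusted p = 0.146). Itm2a, on chromosome X, was at 52.0 ± 1.54 CPM under valproic acid, 50.5 ± 1.08 under poly(I:C) and 51.9 ± 0.718 in controls (SD, n = 3 each). Esam, Cd34 and Emcn, 3 further adhesion molecules of the endothelial surface, had log2 changes of 0.09, 0.09 and -0.19 under valproic acid and -0.01, 0.02 and -0.27 under poly(I:C), none called.

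**Figure D3:**
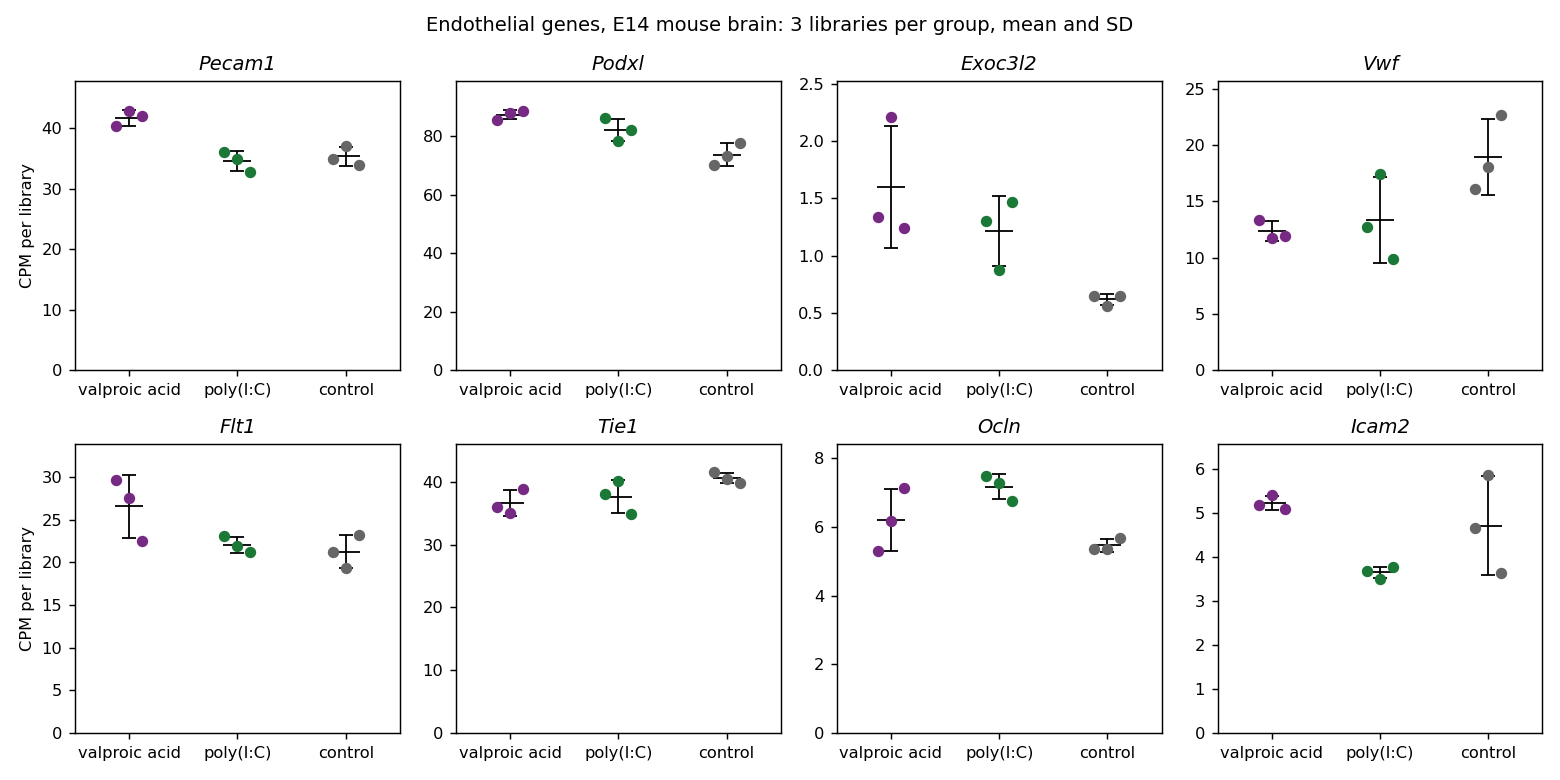
CPM of 8 endothelial genes in each library (points) with the group mean and SD (bars), valproic acid, poly(I:C) and control from left to right, axes from 0. Valproic acid libraries lie wholly above the controls for Pecam1, Podxl and Exoc3l2 and wholly below them for Vwf and Tie1, while for Flt1, Ocln and Icam2 they overlap the controls.

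Of the 4 transporter and caveolar genes edgeR and DESeq2 called 0 in each comparison, and 1, Slco1c1 between the exposures, passed an unadjusted p of 0.05. Mfsd2a, the lysolipid transporter that keeps transcytosis low at the barrier, was at 29.1, 24.7 and 25.9 CPM under valproic acid, 25.3, 26.4 and 23.4 CPM under poly(I:C) and 26.6, 24.8 and 25.4 CPM in controls. The 3 groups overlapped, and the log2 change was 0.05 (95% interval -0.12 to 0.22) under valproic acid and -0.03 (-0.20 to 0.14) under poly(I:C). Slco1c1, a thyroid hormone transporter, was at 16.3, 15.5 and 19.9 CPM under valproic acid, 23.4, 19.2 and 20.4 CPM under poly(I:C) and 19.5, 21.2 and 17.8 CPM in controls. Valproic acid replicates 1 and 2 were the lowest libraries, and the log2 change against poly(I:C) was -0.29 (unadjusted p = 0.0179, edgeR adjusted p = 0.185). Abcb1a, the drug efflux pump P-glycoprotein, whose reads may be shared with its paralog Abcb1b, had log2 changes of -0.18 under valproic acid and -0.15 under poly(I:C). Plvap, the diaphragm protein of leaky vessels that is lost as the barrier matures, was at 5.97 ± 0.714 CPM under valproic acid, 4.70 ± 0.699 under poly(I:C) and 4.92 ± 1.27 in controls (edgeR adjusted p = 0.426 for valproic acid against control).

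Of the 5 secreted, matrix and enzyme genes 1 rose and 1 fell under valproic acid. Vwf was at 13.4, 11.8 and 11.96 CPM under valproic acid, 12.7, 17.4 and 9.88 CPM under poly(I:C) and 16.2, 18.0 and 22.7 CPM in controls. All valproic acid libraries lay below all controls, while poly(I:C) replicate 2 lay among the controls. Vwf fell by 0.62 on the log2 scale under valproic acid (standard error 0.169, edgeR adjusted p = 0.0412). Under poly(I:C) the log2 change was -0.51 (unadjusted p = 0.00844, edgeR adjusted p = 0.225). The valproic acid call was lost in each of the 6 fits lacking 1 library (adjusted p 0.0503 to 0.16), and with Xist as a covariate the estimate was 0.0036. Vwf was lowest in poly(I:C) replicate 3, the one library of its group with Xist, but highest in control replicate 3, which had no Y-linked reads. Sex and exposure cannot be told apart for Vwf.

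Exoc3l2 was at 1.34, 2.21 and 1.24 CPM under valproic acid, 1.30, 0.877 and 1.47 CPM under poly(I:C) and 0.649, 0.563 and 0.646 CPM in controls. Both exposed groups lay wholly above the controls. The log2 change was 1.36 with a standard error of 0.348 under valproic acid (2.57-fold, edgeR adjusted p = 0.0322) and 0.96 under poly(I:C) (1.95-fold, unadjusted p = 0.0171, edgeR adjusted p = 0.282). It rests on 10 to 38 counts per library. The valproic acid call was lost in 4 of 6 fits that left out 1 library, those without a control or without valproic acid replicate 2 (adjusted p up to 0.139), and with either sex-linked covariate. The log2 change was 1.18 with a standard error of 0.429 with Y-linked expression (edgeR adjusted p = 0.192) and 0.92 with a standard error of 0.603 with Xist (0.665).

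Egfl7, a secreted endothelial factor that shapes vessel tubes, was at 18.5, 17.4 and 20.1 CPM under valproic acid, 17.4, 13.9 and 17.6 CPM under poly(I:C) and 17.1, 16.6 and 19.5 CPM in controls. Mmrn2, an endothelial matrix protein, was at 15.7, 11.9 and 13.3 CPM under valproic acid, 9.97, 12.6 and 11.5 CPM under poly(I:C) and 12.7, 13.0 and 11.9 CPM in controls. Both overlapped between all groups, and Mmrn2 differed between the exposures by 0.27 on the log2 scale (unadjusted p = 0.0421, edgeR adjusted p = 0.277). Nos3, the endothelial nitric oxide synthase, had a log2 change of -0.22 under poly(I:C), with all 3 libraries below the controls, and -0.13 under valproic acid, and was not called.

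Replicates of the 36 genes were mostly close. The coefficient of variation within a group had a median of 6.7% in valproic acid libraries, 6.99% in poly(I:C) libraries and 7.31% in controls, and ran up to 33.4%, 28.6% and 34.1%. The widest control spreads belonged to Ly6c1 (34.1%), Foxq1 (32.5%), Plvap (25.8%) and Icam2 (23.7%). Control replicate 2 held the highest value for 9 of the 36 genes, more than any other library, and poly(I:C) replicate 2 for 0.

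Other genes of the vessel wall and its signals were read from lists kept apart from the 36. The vascular basement membrane list held 10 genes: 8 of 10 were higher under valproic acid than under poly(I:C) (median log2 change 0.29; 1.42% of all tested genes were called higher), and 4 of 10 were higher than control (median 0.15; 3.57% of all). Hspg2, the heparan sulphate proteoglycan perlecan, was at 89.2, 101 and 93.1 CPM under valproic acid, 66.5, 64.3 and 77.5 CPM under poly(I:C) and 72.2, 68.1 and 67.7 CPM in controls. All valproic acid libraries lay above all others, 1.36-fold over either group (edgeR adjusted p = 0.00201 against control and 0.00383 against poly(I:C)), and the calls were held in each of the 6 fits lacking 1 library. The laminin chains Lamb1 and Lamc1 rose 1.22-fold and 1.19-fold against control (edgeR adjusted p = 0.0148 and 0.024), and the basement membrane linker Nid2 rose too (edgeR adjusted p = 0.0345). Lamb1 lost its call in 3, Lamc1 in 4 and Nid2 in 4 of the 6 fits lacking 1 library (adjusted p up to 0.054, 0.0837 and 0.125), and all 3 lost it when Y-linked expression entered the fit as a covariate (0.124, 0.134 and 0.209). Against poly(I:C), all 8 calls were lost with that covariate, at adjusted p of 0.0526 (Hspg2) to 0.306 (Nid1). With Xist they were lost too, at 0.229 (Hspg2) to 0.633 (Nid1). Of the 6 fits lacking 1 library, Col4a2 and Lamc1 kept their calls against poly(I:C) in 5. Lama4 and Lamb1 kept theirs in 3, and Col4a1, Nid1 and Nid2 in 2. Col4a1 and Nid1 also lost theirs with only the 6 libraries compared. The type IV collagen chain Col4a2 was higher than under poly(I:C) (1.22-fold, edgeR adjusted p = 0.011) but not called against control (adjusted p = 0.0815). Of 12 fibroblast and meningeal genes edgeR called 0 for valproic acid against control (4 passed an unadjusted p of 0.05). Against poly(I:C) 4 of 12 were higher under valproic acid, the collagens Col1a1 and Col3a1 and the proteoglycans Lum and Dcn. Col1a1 held in each of the 6 fits lacking 1 library, while Col3a1, Lum and Dcn lost their calls in 5 of 6. With Y-linked expression as a covariate all 4 calls were lost (edgeR adjusted p = 0.0773, 0.112, 0.135 and 0.214). They were lost with Xist too (0.297, 0.264, 0.297 and 0.378). The summed list was 924, 733 and 945 CPM under valproic acid, 670, 705 and 696 CPM under poly(I:C) and 799, 755 and 761 CPM in controls. These cells also make basement membrane, and their part in the result was not tested.

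Of 15 tested VEGF, angiopoietin and BMP ligands and inhibitors 1 rose against control under valproic acid. This was Vegfa, the main VEGF ligand, at 105, 82.8 and 89.3 CPM under valproic acid, 76.1, 79.2 and 73.6 CPM under poly(I:C) and 71.0, 69.2 and 69.6 CPM in controls. The valproic acid libraries lay above all others, with a rise of 1.32-fold against control (edgeR adjusted p = 0.00485, held in each of the 6 fits lacking 1 library). Of its receptors, Kdr was not called against control by edgeR or DESeq2, and Flt1 was called by DESeq2 but not by edgeR. Of 14 tested hypoxia and glycolysis genes, which share regulators with Vegfa, 5 rose and 2 fell against control (3.57% and 2.78% of all tested genes). The glycolytic enzymes Ldha, Pgk1, Eno1 and Aldoa had the smallest adjusted p, all higher. The 2 that fell were the glucose transporter Slc2a3 and the glycolytic enzyme Pfkp (log2 change -0.27 each, edgeR adjusted p = 0.0276 and 0.0247). Their calls were kept in 1 and 3 of the 6 fits lacking 1 library. The summed list was 1871, 1905 and 1773 CPM under valproic acid. It was 1618, 1600 and 1596 CPM under poly(I:C) and 1527, 1558 and 1515 CPM in controls.

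Of 19 tested further endothelial genes 1 rose against control, Plxnd1, a semaphorin receptor that neurons also carry (1.2-fold, edgeR adjusted p = 0.00218), and 2 were higher under valproic acid than under poly(I:C), Plxnd1 again (edgeR adjusted p = 0.0435) and the netrin receptor Unc5b (1.26-fold, edgeR adjusted p = 0.0379). Against poly(I:C) both calls were lost in each of the 6 fits lacking 1 library (up to 0.181 and 0.139) and with only the 6 libraries compared, and that of Plxnd1 also with the replicate block (0.0728) and with Y-linked expression as a covariate (0.305). Among 8 tested arterial and venous genes Gja4, the arterial connexin 37, rose 1.26-fold against control (edgeR adjusted p = 0.0385), a call lost in 5 of 6 fits that left out 1 library (up to 0.114). Gja4 was also higher than under poly(I:C) (log2 change 0.44, edgeR adjusted p = 0.0223). That call was kept in 2 of 6 such fits and lost with Y-linked expression (0.146) and with Xist (0.361). Of 16 genes of the Wnt signal for brain vessels Tcf7l1 and Ctnnb1 rose against control (1.28-fold and 1.1-fold, edgeR adjusted p = 0.0417 and 0.0391). These calls were lost in 5 and 4 of the 6 fits that left out 1 library. Of 25 further transporter and junction genes Slc2a1, the glucose transporter of barrier endothelium, rose 1.17-fold against control (edgeR adjusted p = 0.024, lost in 4 of 6 such fits), and Slc7a1, a cationic amino acid transporter, was lower under valproic acid than under poly(I:C) (log2 change -0.16, edgeR adjusted p = 0.0442, lost in all 6). With Xist as a covariate the calls of Hspg2, Vegfa and Plxnd1 against control were lost (edgeR adjusted p = 0.562, 0.276 and 0.436). With Y-linked expression they were kept (0.0371, 0.0309 and 0.0422). Gja4, Tcf7l1, Ctnnb1 and Slc2a1 lost their calls against control with Y-linked expression (edgeR adjusted p = 0.192, 0.106, 0.163 and 0.181), and Slc7a1 that against poly(I:C) (0.242). These calls were also lost with Xist, and that of Gja4 with DESeq2. Of the 26 genes called against control in all other lists, 13 were kept with Y-linked expression and 3 with Xist. Of the 32 called for valproic acid against poly(I:C) in these lists, 10 were kept with Y-linked expression and 4 with Xist. In each of the 6 fits lacking 1 library 13 of the 26 and 8 of the 32 were kept.

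Mural cells wrap the endothelium and regulate vessel tone. Of 14 tested markers 2 fell under valproic acid against control (2.78% of all tested genes were). The log2 change was above 0 for 8 of the 14 and below 0 for 6, with a median of 0.0097. The summed list of 15 genes was at 274, 274 and 302 CPM under valproic acid and 294, 297 and 294 CPM in controls. Under poly(I:C) it was at 270, 273 and 268 CPM. Acta2, smooth muscle actin, was at 2.57, 2.39 and 1.90 CPM under valproic acid, 5.04, 4.77 and 3.71 CPM under poly(I:C) and 4.13, 5.58 and 5.52 CPM in controls. Valproic acid libraries lay below all others, and Acta2 fell by 1.15 on the log2 scale against control (standard error 0.201, edgeR adjusted p = 0.00485, held in each of the 6 fits lacking 1 library). Rgs5, a pericyte regulator of G protein signalling, was at 58.4, 64.5 and 64.0 CPM under valproic acid, 66.5, 63.6 and 64.7 CPM under poly(I:C) and 79.7, 72.1 and 72.7 CPM in controls. Both exposed groups lay below the controls, with a call for valproic acid (log2 change -0.26, edgeR adjusted p = 0.0135) that was lost without control replicate 1 (0.0673) and none for poly(I:C) (-0.20, adjusted p = 0.139). With Y-linked expression as a covariate the Acta2 call against control was kept (edgeR adjusted p = 0.0424) and that of Rgs5 was lost (0.109). With Xist both were lost (0.526 and 0.468).

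Markers of blood and immune cells were read because such cells share some of the 36 genes. Of 10 tested erythroid genes 4, the embryonic globins Hbb-y, Hbb-bh1 and Hba-x and the anion exchanger Slc4a1, rose under valproic acid against control and 8 were higher than under poly(I:C). The summed list was at 2616, 2443 and 2255 CPM under valproic acid, 2015, 1756 and 1385 CPM under poly(I:C) and 2036, 2091 and 1792 CPM in controls. Of 14 microglia and macrophage genes 3 fell under valproic acid against control, P2ry12, Csf1r and Cd163, and 1, Lyve1, also a lymphatic endothelial gene, was higher than under poly(I:C). The P2ry12 call held in each of the 6 fits lacking 1 library, while that of Csf1r was lost in 2, Cd163 in 5 and Lyve1 in 4, and P2ry12 and Cd163 lost theirs with Y-linked expression as a covariate (edgeR adjusted p = 0.0799 and 0.0951). The summed list was at 136, 142 and 141 CPM under valproic acid, 128, 142 and 131 CPM under poly(I:C) and 152, 144 and 153 CPM in controls. Choroid plexus genes gave 0 calls of 8 by edgeR in each comparison (0 at an unadjusted p under 0.05). Of the 9 platelet genes 4 were tested and 0 called by edgeR; 0, 1 and 1 passed an unadjusted p of 0.05 for valproic acid against control, poly(I:C) against control and valproic acid against poly(I:C). No listed marker was at 0 in every library.

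**Figure D4:**
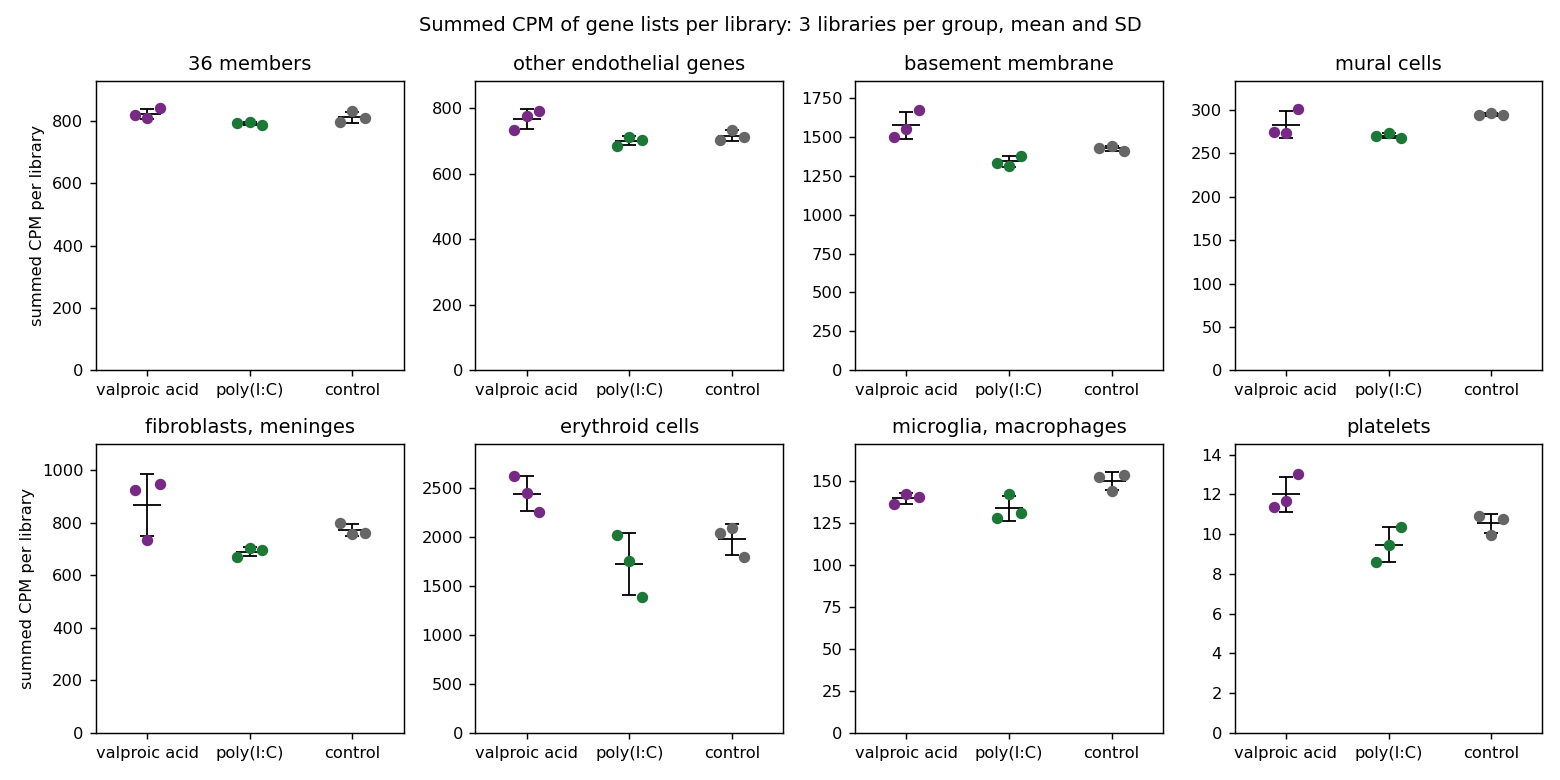
Summed CPM of 8 gene lists in each library (points) with the group mean and SD (bars), valproic acid, poly(I:C) and control from left to right, axes from 0. The 36 genes stay between 787 and 841 CPM in every library, while the basement membrane list is at 1500 to 1673 CPM under valproic acid, 1314 to 1381 under poly(I:C) and 1408 to 1441 in controls.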

How the data were processed

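Raw counts were used as the authors deposited them, in 1 table with a row for each Ensembl gene. Per the submitters' processing notes the aligner was HISAT2 and the build GRCm39 (mm39); which counter, strand setting and annotation release were used is not given in the sources used here. Reads of overlapping or antisense genes could therefore be mixed. Per the labels' protocols, total RNA was depleted of ribosomal RNA and randomly fragmented. Symbols and chromosomes came from GENCODE M21, which names all but 4675 of the 56748 genes; exon lengths are the union of its exons. Totals of 15399974 to 19883131 counts set the precision, and genes of few counts are marked.

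The members and lists were chosen with earlier results of these data known. edgeR 4.0.16 (R 4.3.3; limma 3.58.1) was run with filterByExpr (min.count 10, min.total.count 15), TMM factors (0.978 to 1.02) and a mean per group over all 9 libraries, with glmQLFTest, two-sided, per pair of groups, adjusted over 17171 genes. CPM values use these factors and the deposited totals. Standard errors are the log2 change over the root of F, and 95% intervals use its degrees of freedom. No library was a copy of another of its group (chi-square over degrees of freedom 3.73 to 6.01). The method was tested on simulated counts with known changes and no sex difference, so that test does not bear on sex and exposure. The smallest change simulated was larger than those of Pecam1 and Podxl, so it does not cover them either. Members called or with an unadjusted p under 0.05, and the 2 of each role with the highest mean CPM, have values per library; of other lists up to 4 called genes were to be named, with further values for lists that bear on a member. The listed symbols Ahsp and Ero1a had no match. Alternatives were DESeq2 1.42.0 and its size factors, other filters, fewer libraries, other library sizes, sex-linked covariates (log2 of CPM plus 1) and the replicate number as a block.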

Additional observations from a re-analysis of the deposited data

How the results depend on the processing

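For valproic acid against control 4 genes of the 36 were called; 2 with the replicate block, 1 with Y-linked expression as a covariate, 0 with Xist as a covariate, and 0 to 3 when 1 library was left out (0 without control replicate 1, 1 without control replicate 3 or valproic acid replicate 2, 2 without control replicate 2). For poly(I:C) against control the count was 0, and 1 without a filter on low counts (Vwf, adjusted p = 0.00085). For valproic acid against poly(I:C) the count was 1, but 0 with only the 6 libraries compared and 0 with Xist as a covariate, and 0 to 1 when 1 library was left out. The one called value that changed sign was Vwf for valproic acid against control, at 0.0036 with Xist as a covariate; the cause was not tested. All other alternatives left these counts within 1.5 times; the 4 calls of DESeq2 were Pecam1, Podxl, Vwf and Flt1, and it gave Exoc3l2 no adjusted p. Over all tested genes the calls for valproic acid against control numbered 1090, but 1661 without a filter, 272 and 19 with the covariates and 467 to 789 with 1 library left out. For poly(I:C) against control they were 92, but 464, 86, 42 and 38 to 63, and 172 by DESeq2. For valproic acid against poly(I:C) they were 445, but 1057, 111, 39 and 113 to 294. In 78 of 1610 refits a gene called in neither fit changed sign. Same-numbered libraries had deviations correlated at -0.0416 to 0.131, over 0.1 in 1 of 9 pairs. No clear pairing by number was seen, but 3 libraries per group cannot exclude one. Under the replicate block Vwf and Exoc3l2 lost their calls (edgeR adjusted p = 0.0607 and 0.058). Depth limits Exoc3l2 and Ly6c1 most.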
